A study of Homo sapiens with 12 samples.

Results

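The genes described here are 93 protein-coding genes whose share of the RNA was at least 3 times higher in low serum than in full serum in both genotypes of a human fibroblast line. They were chosen by their measured levels in CPM, that is, the counts of a gene per 1000000 gene counts of its library. A gene entered when its mean CPM in 0.1% serum was at least 3 times that in 10% serum in wild-type as well as ΔLEO1 cells, and was 3 CPM or more in both 0.1% serum groups. The gene table held 60671 genes, of which 19903 were protein-coding and 10292 of these reached 3 CPM in both 0.1% serum groups. All 93 genes passed the filter of more than 1 CPM in at least 3 libraries. The mirrored rule, with the sera exchanged, gave 52 genes.

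Poly(A) RNA was sequenced from BJ-5ta cells, which are human foreskin fibroblasts immortalised with telomerase, to ask how a human cell line changes its gene expression in quiescence and what LEO1 contributes. LEO1 is a subunit of the PAF1 complex, which travels with RNA polymerase II and acts on chromatin. The 4 groups were wild-type cells (WT) in 10% serum, WT cells after 10 days in 0.1% serum, and cells of the LEO1 knockout clone (ΔLEO1) under the same conditions, with 3 libraries each. The ΔLEO1 cells are 1 clone (clone 13), made with guides to 2 exons of LEO1, so the genotype cannot be told apart from the clone. Nothing states whether the 3 libraries of a group were separate cultures, so p-values measure the spread between these libraries only. LEO1 itself had means of 23.5 and 26.8 CPM in WT cells in 10% and 0.1% serum, and of 1.13 and 1.16 CPM in ΔLEO1 cells. In edgeR's quasi-likelihood test with Benjamini-Hochberg adjustment LEO1 was called lower in ΔLEO1 cells under full serum, at −4.02 on the log2 scale with an adjusted p of 2.39e-10, and under low serum, at −4.32 with an adjusted p of 2.1e-11.

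Fibroblasts that are deprived of serum leave the cell cycle and stay in a reversible resting state. Serum carries growth factors and lysophospholipids that drive ERK signalling, and resting fibroblasts remain active in the synthesis and turnover of connective tissue matrix. Among the 93 were matrix proteins, feedback inhibitors of growth factor pathways and immediate early transcription factors. Most tested genes of the matching gene lists described below were not among the 93.

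The library with the highest number in each group (3, 6, 9 and 12) stood apart from its group. The mean chi-square per gene was 3.04 to 12.2 between the lower-numbered libraries of a group, and 66.8 to 145 between these and the highest-numbered one. Gene counts ran from 26240632 to 45315560 per library. The summed level of 30 proliferation markers was 1886, 1917 and 604 CPM in the WT libraries in 10% serum (1, 2 and 3), and 890, 844 and 1417 CPM in 0.1% serum (7, 8 and 9). In ΔLEO1 cells it was 2069, 2282 and 1191 CPM in 10% serum (4, 5 and 6), and 1256, 1220 and 1599 CPM in 0.1% serum (10, 11 and 12). WT library 3 was thus below every 0.1% serum library on these markers. All 13 fibroblast markers were above 1 CPM in every group, and none of the 7 epithelial, 6 endothelial, 6 leukocyte, 4 melanocyte, 6 adipocyte or 6 neural markers was at 1 CPM or more in every group. Of 6 smooth muscle markers, 4 were, with summed levels of 234 to 428 CPM in WT in 10% serum, 146 to 175 in WT in 0.1% serum, 329 to 731 in ΔLEO1 in 10% serum and 279 to 351 in ΔLEO1 in 0.1% serum. The adipocyte markers summed to 9.97 to 10.5 CPM in ΔLEO1 and 0.383 to 0.434 CPM in WT in 10% serum, and to 3.09 to 5.38 and 0.297 to 0.381 CPM in 0.1% serum. Of these only FABP4 reached 1 CPM in a group, and ADIPOQ and LEP were at 0 counts. The leukocyte markers summed to 2.72 to 7.24 CPM in ΔLEO1 and 0.995 to 1.7 CPM in WT in 10% serum, and to 6.18 to 8.24 and 1.22 to 1.67 CPM in 0.1% serum. Of these only PTPRC and CD14 reached 1 CPM in a group. The neural markers went the other way in 10% serum, with 0.45 to 1.75 CPM in ΔLEO1 and 4.06 to 5.28 CPM in WT. The part of these markers in the results was not tested.

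**Figure D1:**
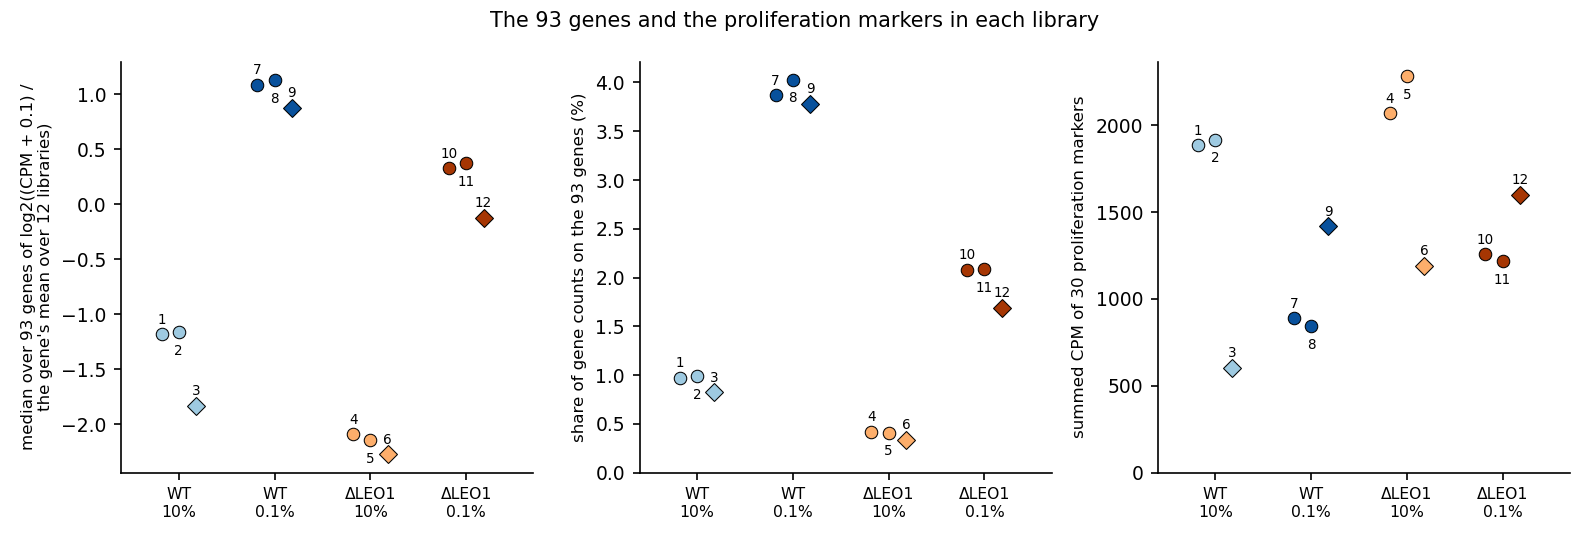
Left, median over the 93 genes of log2((CPM + 0.1) / mean of the gene over 12 libraries) in each library; middle, share of the gene counts on the 93 genes in percent; right, summed CPM of 30 proliferation markers. Points are libraries, numbered as in the text, and diamonds mark the highest-numbered library of a group; the 0.1% serum groups lie above the 10% serum groups of the same genotype in the left and middle panels, while library 3 has the lowest marker sum, 604 CPM.

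The 93 genes took 0.826% to 0.99% of the gene counts in WT libraries in 10% serum and 3.78% to 4.03% in 0.1% serum. In ΔLEO1 libraries they took 0.337% to 0.422% in 10% serum and 1.69% to 2.09% in 0.1% serum. Of this, COL6A1, COL6A2 and DCN alone made up 2.66% to 2.76% of all counts in WT cells in 0.1% serum. The median of the 93 folds in mean CPM was 4.36 in WT cells (3.04 to 90.5) and 5.03 in ΔLEO1 cells (3.02 to at least 93). At least 10-fold was reached by 15 genes in WT cells and 21 in ΔLEO1 cells, and at least 5-fold in both by 27. In CPM the 3 libraries of 0.1% serum lay above those of 10% serum for 92 of the genes in each genotype, against 31.5% of all 13236 tested genes in WT cells and 27.3% in ΔLEO1 cells. The exception in both was ABTB2. These counts follow from how the genes were selected and are given as a description. The genes nearest to the threshold were APCDD1 (5.75-fold in WT, 3.02-fold in ΔLEO1), CDX1 (3.04 and 3.74) and NFIA (3.04 and 3.09) on the inside. GRHL1 (3.63 and 2.97), SERTAD4 (2.96 and 4.96) and ARSL (3.89 and 2.95) fell just outside.

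**Figure D2:**
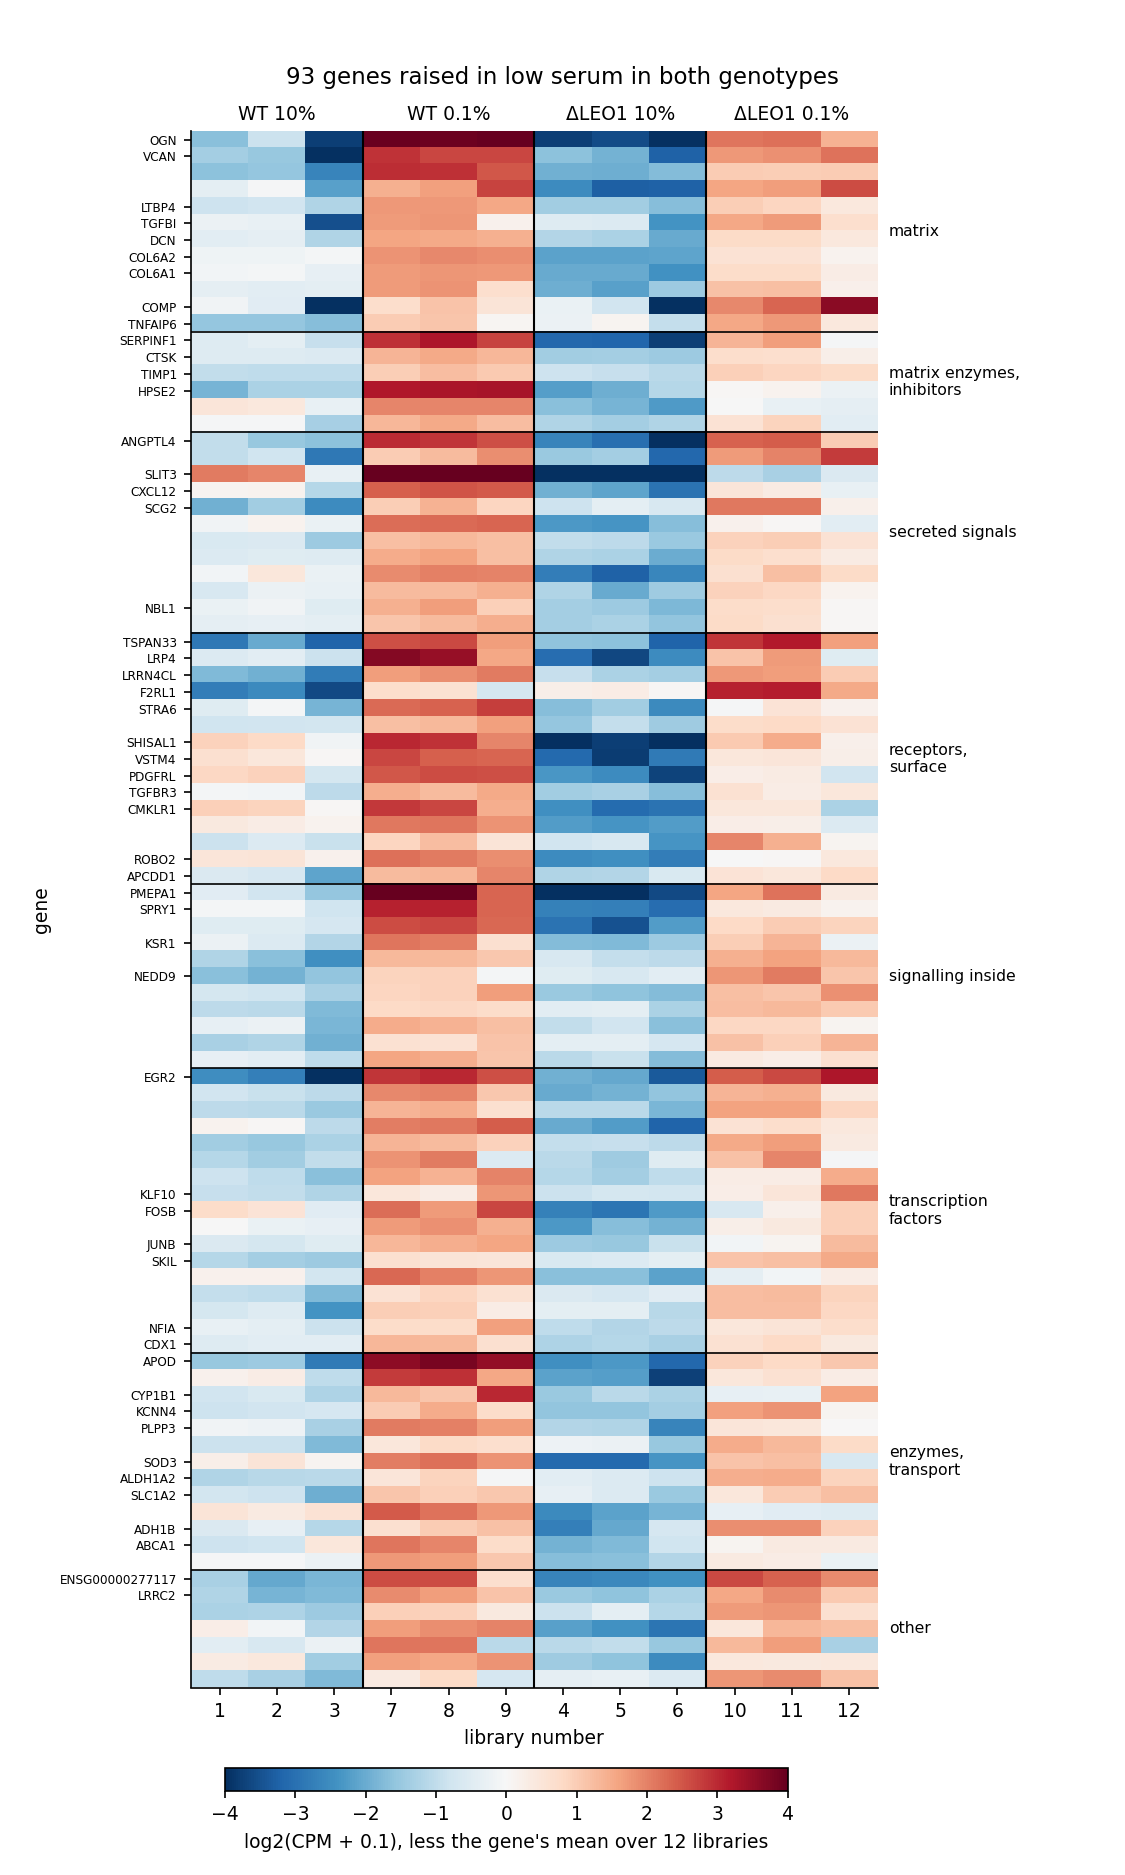
Heat map of log2(CPM + 0.1), less the mean of the gene over 12 libraries, for the 93 genes (rows, ordered by role, with part of the rows named) in 12 libraries (columns, by group and library number); colours saturate at −4 and 4. The 0.1% serum columns are redder than the 10% serum columns of the same genotype, and rows such as SLIT3, PMEPA1 and SHISAL1 are bluer in ΔLEO1 than in WT.

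Relative to the ERCC transcripts, synthetic RNAs added to each RNA sample, most genes of these cells were lower in 0.1% serum, and the all-gene median was −0.97 in WT and −1.05 in ΔLEO1 on the log2 scale. On this scale all 93 genes were above 0, with medians of 1.01 (0.42 to 5.45) in WT and 1.11 (0.27 to 6.77) in ΔLEO1 cells. Of all tested genes 4.96% and 5.15% had positive values. The choice of genes at least 3-fold higher in CPM largely fixed this outcome, so it is given as a description. In bulk RNA, fewer cells of a type and less RNA per cell cannot be told apart, and the RNA input of each library is not given in the sources used here. On the ERCC scale, 38 of the 93 were called higher in WT (0.831% of all tested genes were) and 41 in ΔLEO1 (0.793%), and 17 genes still had folds of 3 or more in both genotypes. Nothing is read from these values and counts, since the same contrast chose the genes.

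A check on libraries that played no part in the choice was possible with the highest-numbered ones. When the rule was applied to the 2 lower-numbered libraries of each group, 90 genes met it, 74 of them among the 93. In the highest-numbered libraries, 85 of these 90 (94.4%) were higher in 0.1% than in 10% serum in both genotypes and 53 (58.9%) were at least 3 times higher in both. Among all 10215 protein-coding genes at the same CPM floor the shares were 47.1% and 1.19%. Median folds of the 90 were 4.58 in WT and 4.05 in ΔLEO1 cells, against 1.06 and 1.1 over all genes at the floor. The 5 genes that were not higher in both were MSC, TMOD1, ABTB2, IL15RA and C3. ABTB2, for example, went from folds of 6.44 and 5.98 in the lower-numbered libraries to 0.555 and 1.16 in the highest-numbered ones.

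**Figure D3:**
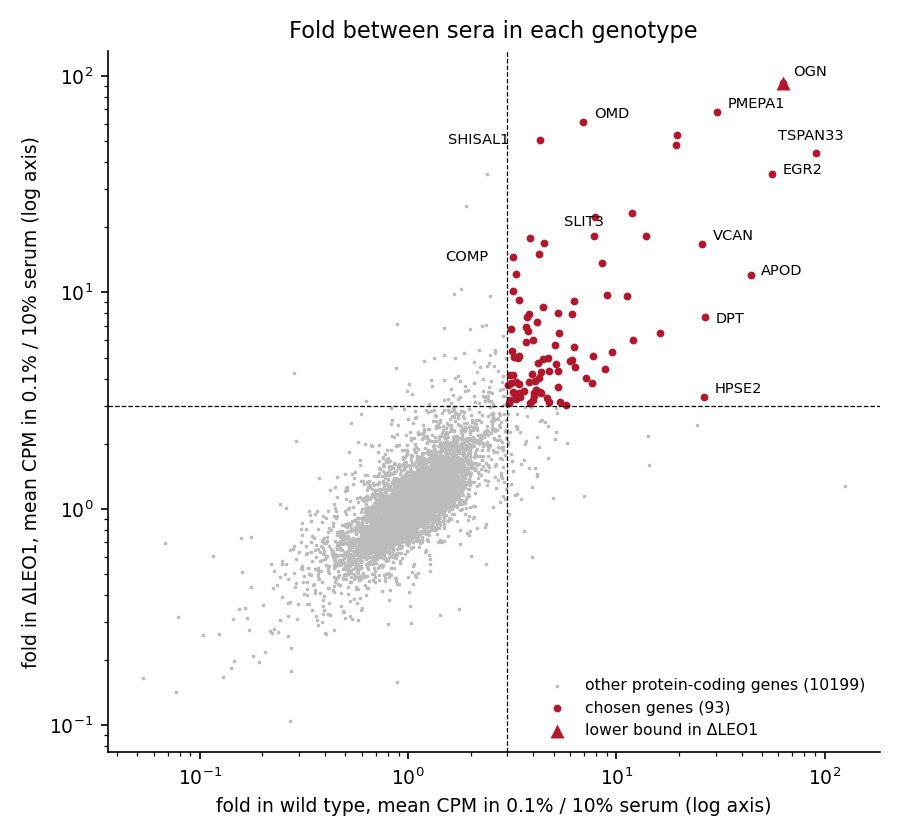
Fold of mean CPM in 0.1% over 10% serum in WT (x axis, log) and in ΔLEO1 cells (y axis, log) for protein-coding genes with 3 CPM or more in both 0.1% serum groups; red points are the 93 genes, grey points the other genes, dashed lines 3-fold. OGN is drawn as a triangle at its lower bound in ΔLEO1 cells, 93-fold; HPSE2 stands far to the right of its ΔLEO1 value (26.4 and 3.3), and OMD far above its WT value (6.95 and 61.2).

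Promoter sequences of 300 bases (250 before and 50 after the start site) were taken from RefSeq on GRCh38.p14, which held 65 of the 93 genes. The sequence TATAAA with its first base between 36 and 24 bases before the start, on the strand of the gene, was present in 7 of the 65 (10.8%), in 1.49% of 9729 promoters of tested protein-coding genes and in 2.44% of all 27305 promoters. This window was chosen after the genes were known, so the shares are a description. The 7 promoters are shown because they carry the same letters at nearly the same distance from the start. Each line gives the 70 bases before the start site, 5′ to 3′ on the strand of the gene, with the TATAAA in capitals.
ANGPTL4: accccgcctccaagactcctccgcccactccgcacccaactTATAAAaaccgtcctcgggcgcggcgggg
DPT: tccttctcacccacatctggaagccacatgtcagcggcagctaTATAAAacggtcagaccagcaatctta
NFATC2: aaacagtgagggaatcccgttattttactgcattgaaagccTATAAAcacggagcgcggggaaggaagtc
COL6A2: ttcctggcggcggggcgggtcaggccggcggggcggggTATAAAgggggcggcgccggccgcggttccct
FOSB: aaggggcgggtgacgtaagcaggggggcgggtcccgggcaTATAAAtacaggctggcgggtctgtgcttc
JUNB: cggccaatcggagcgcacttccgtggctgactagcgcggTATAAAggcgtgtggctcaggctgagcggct
ABCA1: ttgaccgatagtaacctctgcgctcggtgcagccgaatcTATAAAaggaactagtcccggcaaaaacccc
In this order the stretches lie at chr19:8364085-8364154 (plus strand), chr1:168729207-168729276 (minus), chr20:51562840-51562909 (minus), chr21:46098042-46098111 (plus), chr19:45467926-45467995 (plus), chr19:12791416-12791485 (plus) and chr9:104928156-104928225 (minus). The 7 genes have different roles: a matrix protein (DPT), a collagen chain (COL6A2), a secreted lipase inhibitor (ANGPTL4), 3 transcription factors (NFATC2, FOSB and JUNB) and a cholesterol exporter (ABCA1).

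The other motifs were searched on both strands over the 300 bases, and overlaps between motifs were allowed. The share of the 65 promoters was 13.8% for TATAAA anywhere (5.25% of tested coding genes, 12% of all promoters), 6.15% for TGTTTAC, the FOXO site (2.22% and 3.41%), and 6.15% for TGANTCA, the AP-1 site (4.33% and 7.76%). It was 9.23% for CACGTG, the E-box (10.1% and 7.43%), 1.54% for TTATGTAA, the D-box (0.36% and 0.912%), 1.54% for TGACGTCA, the CRE (3.39% and 1.98%), and 9.23% for TTCNNNGAA, the STAT site (6.43% and 7.88%). GGGCGG, bound by SP1, was in 56.9% (71% and 44.6%), CACCC, bound by KLF factors, in 72.3% (62.6% and 58.9%), and GGAATG, bound by TEAD factors, in 15.4% (10.9% and 14%). AGAACA, a steroid receptor site, was in 12.3% (8.54% and 14.9%), TTTGAA, the CHR of cell cycle genes, in 12.3% (9.66% and 15.4%), and the CArG box of serum response factor, added after the genes were known, in 1.54% (1.04% and 1.29%). Only the SP1 and KLF letters were found in more than 15.4% of the 65 promoters, and they were also frequent in those of the tested genes. The promoters of OGN and EGR2, among the genes with the largest folds, are shown for their full 250 bases before the start, with motifs other than SP1 and KLF in capitals.
OGN: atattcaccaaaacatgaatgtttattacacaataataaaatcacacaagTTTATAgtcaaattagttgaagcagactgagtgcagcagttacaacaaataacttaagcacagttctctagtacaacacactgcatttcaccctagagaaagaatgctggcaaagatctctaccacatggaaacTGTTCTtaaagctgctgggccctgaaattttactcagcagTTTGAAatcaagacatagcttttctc
EGR2: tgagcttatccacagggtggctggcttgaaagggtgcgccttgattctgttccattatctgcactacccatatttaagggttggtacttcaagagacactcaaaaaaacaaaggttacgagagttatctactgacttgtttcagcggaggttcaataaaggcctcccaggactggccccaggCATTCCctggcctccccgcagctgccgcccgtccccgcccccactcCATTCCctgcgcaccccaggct
The OGN stretch is chr9:92404579-92404828 (minus strand) and holds the TATA letters in reverse, the steroid receptor letters in reverse and a CHR. The EGR2 stretch is chr10:62819168-62819417 (minus strand) and holds the TEAD letters at 2 places.

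Along the genome, 3 pairs of the 93 genes were direct neighbours with no other protein-coding gene starting between them. OGN and OMD lie 9548 bases apart on chromosome 9, CD7 and SECTM1 3421 bases apart on chromosome 17, and COL6A1 and COL6A2 93046 bases apart on chromosome 21. The median exon length was 4855 bases, against 5259 in tested protein-coding genes, and the median gene span 35321 bases against 34178. Exon bases were shared with another annotated gene by more than 10% in 13 of the 93. The largest shares were in CD302 (74.4%), DPT (54.6%), SNED1 (37.6%) and ZNF365 (31.1%), and the strand setting of the counting is not given in the sources used here, so counts of these genes are less certain.

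Among the 12 matrix proteins, the highest levels and the largest folds were in different genes. Osteoglycin (OGN, ENSG00000106809, chr9:92383967-92404696 on GRCh38, minus strand), a small leucine-rich proteoglycan, had 0.439, 0.842 and 0.0255 CPM in WT libraries in 10% serum and 26.6, 25.8 and 30.1 CPM in 0.1% serum, a 63.1-fold higher mean. In ΔLEO1 cells it had 0.0258, 0.0441 and 0 CPM in 10% serum, which is no more than 2 counts in any library, and 7.39, 7.84 and 4.39 CPM in 0.1% serum. The ΔLEO1 mean in 0.1% serum was therefore at least 93-fold higher, taking 3 counts per library as the floor. OGN was nearly silent in full serum in both genotypes, WT library 3 included. Its neighbour osteomodulin (OMD), a proteoglycan of bone, had 1.1, 1.43 and 0.255 CPM in WT in 10% serum and 4.16, 4.84 and 10.3 CPM in 0.1% serum. In ΔLEO1 cells OMD had 0.18, 0.0662 and 0.0675 CPM and then 4.66, 4.92 and 9.66 CPM. Both neighbours had lower means in ΔLEO1 than in WT cells in full serum, and in low serum the genotypes overlapped for OMD and were apart for OGN.

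The most abundant of the 93 per exon length were the matrix genes COL6A2 and COL6A1. Collagen VI, a beaded filament of the pericellular matrix, is built from chains encoded by COL6A1 and COL6A2 among others. COL6A2 had 2993, 3028 and 3207 CPM in WT in 10% serum and 11765, 12770 and 12277 CPM in 0.1% serum, and in ΔLEO1 cells 765, 772 and 784 and then 5097, 5101 and 3761 CPM. COL6A1 had 2388, 2460 and 2043 CPM and then 8435, 8790 and 8625 CPM in WT, and 642, 637 and 483 and then 4257, 4271 and 3168 CPM in ΔLEO1. In CPM all 4 groups of either gene were separate, with ΔLEO1 cells in 0.1% serum above WT cells in 10% serum and below WT cells in 0.1% serum. On the ERCC scale ΔLEO1 cells in 0.1% serum overlapped WT cells in 10% serum. COL6A2 had 152768 to 341188 there against 222777 to 377349, and COL6A1 127910 to 287384 against 141963 to 301049. Per kilobase of exon, the mean level in WT cells in 0.1% serum was 2278 CPM for COL6A2, 1613 CPM for COL6A1, 1093 CPM for TIMP1 and 470 CPM for DCN, against a median of 9.41 CPM per kilobase over the 93 genes.

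In other matrix genes the highest-numbered library of a group often lay apart. Decorin (DCN), a collagen-binding proteoglycan, had 1586, 1645 and 918 CPM in WT in 10% serum and 6355, 6020 and 5731 CPM in 0.1% serum, with 943, 891 and 524 and then 3621, 3617 and 2820 CPM in ΔLEO1 cells. Versican (VCAN), a large hyaluronan-binding proteoglycan, had 12.8, 11.4 and 1.58 CPM and then 244, 212 and 210 CPM in WT, and 10.5, 8.89 and 3.4 and then 111, 119 and 150 CPM in ΔLEO1. Dermatopontin (DPT), which binds decorin, had 2.17, 2.35 and 1.05 CPM and then 54.8, 53.7 and 39.8 CPM in WT, but 1.78, 1.74 and 2.05 and then 14.3, 14 and 14.4 CPM in ΔLEO1. For all 3 genes the highest-numbered WT library in 10% serum was the lowest. The latent TGF-β binding protein LTBP4 had 5.96-fold and 4.8-fold higher mean CPM in low serum, and TGFBI, a TGF-β-induced adhesion protein, 4.46-fold and 4.94-fold, in WT and ΔLEO1 respectively. TGFBI had only 11 CPM in WT library 3 and 144 CPM in library 9, against 103 to 108 and 413 to 436 CPM in the other WT libraries.

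Cartilage oligomeric matrix protein (COMP), a pentamer of the thrombospondin family, also had unequal libraries. It had 5.48, 4.36 and 0.179 CPM in WT in 10% serum and 10, 13.5 and 8.6 CPM in 0.1% serum. In ΔLEO1 cells it had 5.05, 3.55 and 0.248 CPM in 10% serum and 23.4, 30.8 and 74.4 CPM in 0.1% serum. ΔLEO1 cells in low serum were thus highest, and library 12 was the highest of them. The summed level of 6 chondrocyte markers also differed, with 2.3 to 3.87 CPM in WT in 10% serum, 13.8 to 17.9 CPM in WT in 0.1% serum, 6.1 to 7 CPM in ΔLEO1 in 10% serum and 11.8 to 14.6 CPM in ΔLEO1 in 0.1% serum. Of these markers COL11A2 and SOX9 reached 1 CPM in a group, and COL9A1 was at 0 counts in all libraries. Their part in the matrix results was not tested.

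The 93 genes were a small part of the matrix genes of these cells. Among 67 tested matrix glycoproteins and proteoglycans, 9 were among the 93, and on the ERCC scale 6 were called higher and 23 lower in 0.1% serum in WT cells, and 5 higher and 21 lower in ΔLEO1 cells. Over all tested genes 0.831% were called higher and 27% lower in WT, and 0.793% and 36.4% in ΔLEO1 cells. Of 27 tested collagens 3 were higher and 12 lower in WT, and 2 higher and 14 lower in ΔLEO1, with COL6A1 and COL6A2 the collagens among the 93. Of 51 matrix proteases, inhibitors and cross-linking enzymes, TIMP1 and SERPINF1 were among the 93, and 3 were higher and 18 lower in WT, and 2 higher and 17 lower in ΔLEO1.

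The 6 proteases, inhibitors and matrix-modifying enzymes included the metalloprotease inhibitor TIMP1, at 399, 393 and 388 CPM in WT in 10% serum and 1574, 1844 and 1636 CPM in 0.1% serum, and 448, 418 and 376 and then 1530, 1422 and 1332 CPM in ΔLEO1 cells. TIMP1 was the most abundant of the 6, and its ERCC-scaled values overlapped between genotypes in both sera. SERPINF1, the secreted serpin PEDF, had 20.3, 22.1 and 15.4 CPM and then 220, 276 and 191 CPM in WT, and 3.22, 3.09 and 2.05 and then 74.5, 92.5 and 28.2 CPM in ΔLEO1, so that ΔLEO1 libraries were lower in both sera. The collagen-degrading protease cathepsin K (CTSK) had 3.82-fold and 3.85-fold higher means. Heparanase 2 (HPSE2), a relative of heparanase without its enzyme activity, had 2.82, 4.29 and 4.34 CPM and then 97.8, 101 and 103 CPM in WT, and 2.19, 2.63 and 4.7 and then 10.9, 11.5 and 8.95 CPM in ΔLEO1. The genotypes overlapped in full serum and were far apart in low serum, so that the fold was 26.4 in WT and 3.3 in ΔLEO1.

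**Figure D4:**
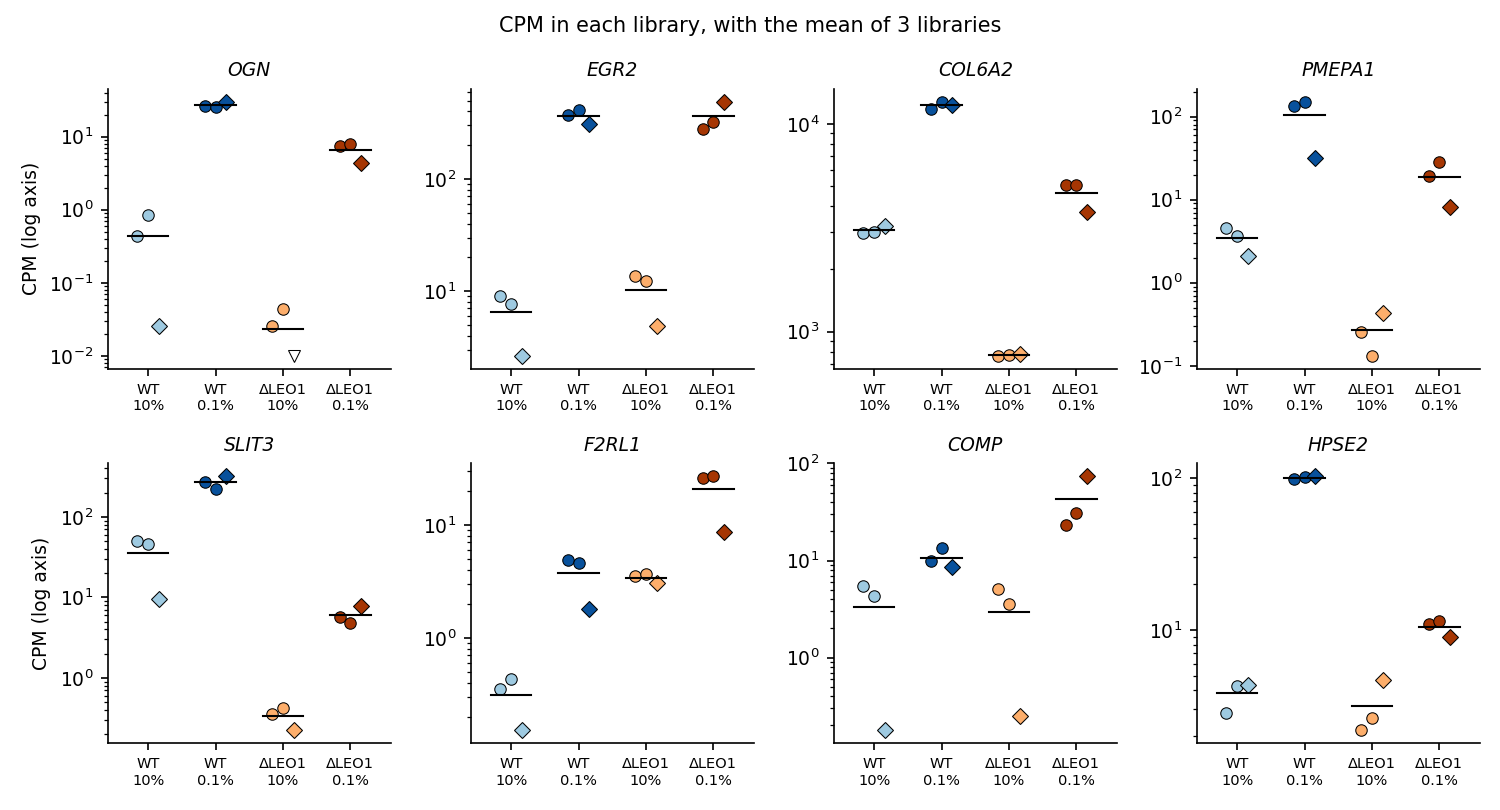
CPM of 8 of the genes in each library (log axes), by genotype and serum; circles are the lower-numbered libraries of a group, diamonds the highest-numbered one, horizontal lines the mean of 3 libraries, and the open triangle a value of 0, drawn at 0.01. OGN is near 0 in 10% serum in both genotypes, SLIT3 is lower and F2RL1 higher in ΔLEO1 cells in both sera, COMP is highest in library 12 at 74.4 CPM, and HPSE2 lies lower in ΔLEO1 cells in 0.1% serum, with 8.95 to 11.5 CPM against 97.8 to 103.

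Among the 12 secreted signals, the largest folds were in ANGPTL4, an inhibitor of lipoprotein lipase, with 1.89, 1.28 and 1.17 CPM in WT in 10% serum and 31.5, 28.7 and 23.8 CPM in 0.1% serum, and 0.541, 0.397 and 0.09 and then 20.1, 21 and 7.93 CPM in ΔLEO1 cells. The groups in different sera were more than 10-fold apart in both genotypes (19.4 and 47.7). The chemokine CXCL12, the ligand of CXCR4, had 98.8, 99.9 and 41.5 CPM and then 475, 526 and 503 CPM in WT, and 24.1, 21.2 and 11.6 and then 128, 114 and 74.8 CPM in ΔLEO1. SLIT3, a secreted guidance cue (ENSG00000184347, chr5:168661733-169301129, minus strand), had 49.7, 46.2 and 9.54 CPM and then 273, 224 and 322 CPM in WT. In ΔLEO1 cells SLIT3 had 0.361, 0.419 and 0.225 CPM and then 5.66, 4.76 and 7.79 CPM. In CPM the highest ΔLEO1 library in low serum was thus below the lowest WT library in full serum. On the ERCC scale these 2 libraries had 707 and 663, so the groups overlapped. ROBO2, a receptor for SLIT proteins, had 85.2, 88 and 69.7 CPM and then 281, 257 and 221 CPM in WT, and 10.7, 11 and 8.85 and then 60.4, 63.8 and 82.7 CPM in ΔLEO1. Its libraries too were lower in ΔLEO1 in both sera. GDNF, a neurotrophic factor that signals through RET, had a 3.84-fold higher mean in 0.1% serum in WT and a 17.8-fold higher mean in ΔLEO1 cells. NBL1, an antagonist of bone morphogenetic proteins, had 3.19-fold and 4.15-fold higher means.

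The 15 receptors and surface proteins included the gene with the largest fold in WT cells. TSPAN33, a tetraspanin, had 0.0274, 0.128 and 0 CPM in WT in 10% serum (1, 5 and 0 counts) and 5.44, 5.75 and 2.84 CPM in 0.1% serum, and 0.206, 0.199 and 0 and then 6.7, 8.3 and 2.83 CPM in ΔLEO1 cells. It was low in every library in full serum, and the folds of 90.5 and 44 rest on few counts there. LRP4, a receptor for agrin and sclerostin with a role in Wnt signalling, had 4.69, 5.08 and 3.8 CPM and then 89.4, 78.2 and 20.4 CPM in WT, and 0.748, 0.463 and 1.13 and then 15.2, 22.6 and 4.87 CPM in ΔLEO1. F2RL1, the protease-activated receptor PAR2, had 0.356, 0.434 and 0.153 CPM and then 4.9, 4.61 and 1.79 CPM in WT, and 3.53, 3.66 and 3.08 and then 26.2, 27.1 and 8.73 CPM in ΔLEO1. In F2RL1 the order of the genotypes was the opposite of that in LRP4. The highest-numbered libraries in low serum were the lowest for both genes.

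SHISAL1, a transmembrane protein, had 8.88, 8.07 and 4.18 CPM in WT in 10% serum and 37.7, 34.7 and 18.3 CPM in 0.1% serum. In ΔLEO1 cells SHISAL1 had 0.155, 0.243 and 0.158 CPM in 10% serum and 9.66, 13 and 5.35 CPM in 0.1% serum. The ΔLEO1 libraries in low serum overlapped the WT libraries in full serum. CMKLR1, the chemerin receptor, VSTM4, PDGFRL and CD302 had the same layout, with WT above ΔLEO1 in both sera. APCDD1, a membrane inhibitor of Wnt signalling, had 55.4, 51.7 and 19 CPM and then 198, 206 and 322 CPM in WT, and 35.5, 36.2 and 53.8 and then 121, 114 and 144 CPM in ΔLEO1. Here the highest-numbered libraries in low serum were the highest.

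Among the 11 signalling proteins inside the cell or in its membranes were feedback inhibitors of growth factor pathways. PMEPA1, which is induced by TGF-β and binds SMAD proteins, had 4.58, 3.68 and 2.12 CPM in WT in 10% serum and 133, 151 and 32 CPM in 0.1% serum, and 0.258, 0.132 and 0.428 and then 19.1, 28.7 and 8.07 CPM in ΔLEO1 cells. SPRY1, an inhibitor of receptor tyrosine kinase and ERK signalling, had 6.66, 6.74 and 4.05 CPM and then 60.9, 61 and 35.8 CPM in WT, and 1.01, 0.971 and 0.765 and then 9.57, 9.13 and 7.9 CPM in ΔLEO1. In both genes every ΔLEO1 library was below every WT library in the same serum. DACT1, a regulator of Wnt signalling, had 8.52-fold and 13.6-fold higher means in low serum, KSR1, a scaffold of the ERK cascade, 5.1-fold and 5.69-fold, and WLS, which carries Wnt proteins to the cell surface, 4.76-fold and 3.12-fold. NEDD9, an adaptor of integrin signalling, had 18.2, 15.8 and 19.6 CPM and then 109, 111 and 55.1 CPM in WT, and 41.9, 37.1 and 43.7 and then 199, 248 and 127 CPM in ΔLEO1. For NEDD9 the ΔLEO1 libraries were the higher ones.

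In the lists for these pathways, few of the genes were among the 93. Of 65 tested growth factors, receptors and ERK brakes, KSR1, SPRY1, PDGFRL, ANGPTL4 and GDNF were, and on the ERCC scale 6 were higher and 23 lower in 0.1% serum in WT cells, with 8 higher and 22 lower in ΔLEO1. Over all tested genes 0.831% were higher and 27% lower in WT, and 0.793% and 36.4% in ΔLEO1. Of 34 tested Wnt genes, APCDD1 and LRP4 were, with 5 higher and 6 lower in WT and 4 higher and 6 lower in ΔLEO1. Of 50 tested TGF-β and BMP genes, NBL1, SKIL and TGFBR3 were, with 0 higher in either genotype and 17 and 18 lower. The median log2 fold change of the Wnt list was −0.48 in WT, against −0.75 and −0.81 for the other lists and −0.97 for all genes.

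The 17 transcription factors and cofactors were led by EGR2, an immediate early zinc finger factor (ENSG00000122877). EGR2 had 9.13, 7.71 and 2.65 CPM in WT in 10% serum and 375, 412 and 308 CPM in 0.1% serum, and 13.5, 12.4 and 4.88 and then 278, 319 and 488 CPM in ΔLEO1 cells, folds of 56.2 and 35.2. The genotypes overlapped in both sera on the ERCC scale. The related EGR3 had 7.16-fold and 4.04-fold higher means, and the TGF-β-inducible factor KLF10 had 48, 45.9 and 39.5 CPM and then 123, 112 and 307 CPM in WT, and 50.4, 56.1 and 54.1 and then 108, 127 and 393 CPM in ΔLEO1. Libraries 9 and 12 were the highest for KLF10, well above the others of their groups. In the lower-numbered libraries alone KLF10 was less than 3-fold higher in low serum in both genotypes. The AP-1 subunit JUNB had 143, 131 and 155 CPM and then 545, 585 and 637 CPM in WT, and 79, 75 and 115 and then 201, 231 and 518 CPM in ΔLEO1. In the lower-numbered ΔLEO1 libraries alone JUNB was less than 3-fold higher in low serum. FOSB, another AP-1 subunit, had 98.4, 86.3 and 43.8 CPM and then 282, 195 and 378 CPM in WT, and 9.02, 7.75 and 12.2 and then 38, 68 and 116 CPM in ΔLEO1. FOSB libraries were lower in ΔLEO1 than in WT cells in both sera. The vitamin D receptor (VDR) had 5.28-fold and 6.47-fold higher means, and SKIL, a repressor of SMAD proteins, 3.6-fold and 3.5-fold.

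The list of KLF, FOX, HES and immediate early factors had 58 tested genes, 5 of them among the 93, and on the ERCC scale 4 were higher and 9 lower in WT and 5 higher and 10 lower in ΔLEO1. The shares over all tested genes were 0.831% and 27% in WT and 0.793% and 36.4% in ΔLEO1. Of the 42 tested growth arrest and FOXO target genes, SERPINF1 alone was among the 93, and 4 were higher and 14 lower in WT, and 2 higher and 12 lower in ΔLEO1. Lipid genes held 4 of the 93 (PLPP3, ABCA1, APOD and ANGPTL4) among 51 tested, with 5 higher and 17 lower in WT and 4 higher and 15 lower in ΔLEO1. None of the 93 belonged to the lists of complement, cadherin, interferon-stimulated, antigen presentation, circadian, prostaglandin, contractile or proliferation genes.

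The 13 enzymes, channels, transporters and vesicle proteins ranged from APOD to ENPP1 in the size of the smaller fold. Apolipoprotein D (APOD), a secreted lipocalin that binds lipids, had 5.81, 6.05 and 2.24 CPM in WT in 10% serum and 199, 234 and 191 CPM in 0.1% serum, and 2.94, 3.29 and 1.82 and then 31.8, 29.2 and 35.4 CPM in ΔLEO1 cells. Extracellular superoxide dismutase (SOD3) had 86.7, 104 and 78.7 CPM and then 301, 337 and 254 CPM in WT, and 8.48, 8.3 and 14.1 and then 160, 170 and 46.6 CPM in ΔLEO1. The genotypes did not overlap in SOD3 in either serum, and in APOD they did not overlap in low serum. The cholesterol exporter ABCA1 had 37.6, 38.2 and 91.5 CPM and then 296, 260 and 112 CPM in WT, with library 3 highest in full serum and library 9 lowest in low serum. The cytochrome CYP1B1 had 26.8, 23.7 and 88.2 CPM in WT in 0.1% serum and 8.65, 8.79 and 33.7 CPM in ΔLEO1, so that libraries 9 and 12 were more than 3-fold above the others of their groups. In the lower-numbered ΔLEO1 libraries alone CYP1B1 was less than 3-fold higher in low serum, with 3.87 and 5.1 CPM in 10% serum. The remaining 7 genes of no common role included LRRC2, a leucine-rich repeat protein, with 11.3-fold and 9.65-fold higher means, and ENSG00000277117 on chromosome 21, which had no symbol in the table used.

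The genotypes were compared in each serum with edgeR's two-sided quasi-likelihood test on the ERCC scale and Benjamini-Hochberg adjustment over all 13236 tested genes. In 0.1% serum 2 of the 93 genes were called higher in ΔLEO1 than in WT cells and 24 (25.8%) lower. Over all tested genes 3.49% were called higher and 3.41% lower. In 10% serum 4 were called higher and 29 (31.2%) lower, against 3.81% and 4.2% of all tested genes. These counts include SCG2, called higher, and OGN, OMD and TEX29, called lower. Each was above 1 CPM in fewer than 3 libraries of 10% serum and passed the filter through the 0.1% serum libraries. The median log2 fold change of the 93 was −0.62 in 0.1% serum and −0.53 in 10% serum, where the median of all tested genes was 0.27 and 0.35. Relative to those medians, 69 of the 93 were lower in 0.1% serum and 70 in 10% serum. The choice used the means of the same 4 groups, requiring a difference between sera in both genotypes, and set no direction between genotypes.

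In CPM, which needs no ERCC transcripts, the 3 ΔLEO1 libraries lay below the 3 WT libraries for 53 of the 93 genes in 0.1% serum (57% against 21.8% of all tested genes) and above them for 9 (19.7% of all tested genes). In 10% serum they lay below for 48 (51.6% against 29.6%) and above for 14 (29.8% of all tested genes). Without the highest-numbered library of each group, the test called 1 higher and 47 lower in 0.1% serum, against 2.26% and 11.8% of all genes, whose median was then −0.42. In 10% serum it called 4 higher and 33 lower, against 4.9% and 5.86% of all genes. The labels name no batch. With a batch term for the highest-numbered libraries, added after seeing the data, the test called 2 higher and 18 lower in 0.1% serum (3.05% and 2.99% of all genes) and 4 higher and 27 lower in 10% serum (3.47% and 3.9%). This term gives a gene the same shift in all 4 groups. The proliferation markers, however, were lower in libraries 3 and 6 and higher in 9 and 12 than in the rest of their groups. When libraries 1 and 2, 4 and 5, 7 and 8, and 10 and 11 were each summed into 1, it called 2 higher and 2 lower in 0.1% serum, where 1.86% and 1.44% of all genes were called, and 1 higher and 12 lower in 10% serum (1.59% and 2.13%). With 1 library left out, the 24 genes lower in 0.1% serum became 12 without WT library 8 (2.14% of all genes), 15 without ΔLEO1 library 10 (2.36%) and 36 without ΔLEO1 library 12 (7.25%). The 29 in 10% serum became 18 without ΔLEO1 library 6 (2.88%) and 19 without library 5 (2.87%). The genes called higher became 7 in 0.1% serum without ΔLEO1 library 11, when 8.48% of all genes were called higher. In 10% serum they became 1 without library 2, 3, 4 or 5 (2.23% to 2.64% of all genes), 7 without library 11 (5.92%) and 9 without library 12 (7.14%). Scaled by TMM on the genes in place of the ERCC transcripts, it called 5 higher and 45 lower in 0.1% serum (15.1% and 17.3% of all genes) and 9 higher and 46 lower in 10% serum (17.9% and 21.4%).

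**Figure D5:**
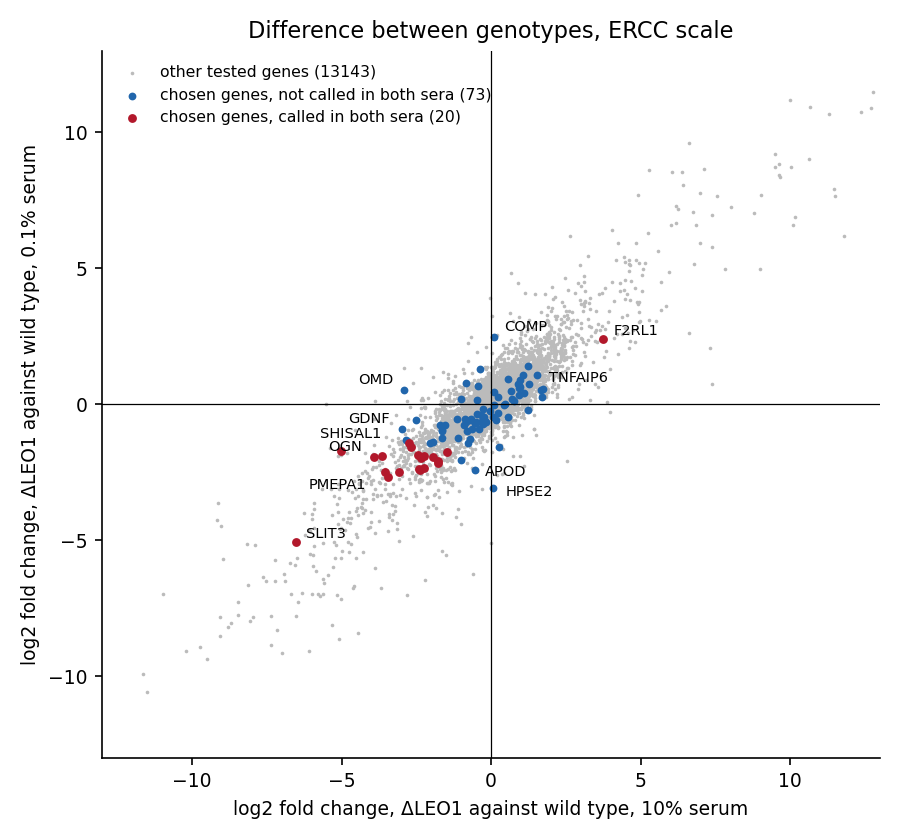
Log2 fold change of ΔLEO1 against WT on the ERCC scale in 10% serum (x axis) and in 0.1% serum (y axis) for the 13236 tested genes; grey points are other genes, blue and red points the 93 genes, red where called in both sera. The 20 red points are 19 genes lower in both sera, with SLIT3 the farthest out, and F2RL1, higher in both.

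Of the 93, 19 (20.4%) were called lower in ΔLEO1 cells in both sera and 1 (1.08%) higher in both, against 2.71% and 2.55% of all tested genes. None was called in opposite directions, and 54 (58.1%) were called in neither, against 90.4%. The sera were compared in different libraries, but all 12 share 1 estimate of the spread. Over all 93 genes 25.8% were called lower in 0.1% serum and 31.2% in 10% serum, against 3.41% and 4.2% of all tested genes. Roles were assigned with the genes known, so the counts by role are a description. By role, 8 of 15 receptors and surface proteins were called lower in 0.1% serum and 7 in 10% serum, with medians of −1.55 and −0.99. Of 12 secreted signals, 3 and 5 were called lower, and of 12 matrix proteins 2 and 4. Of 17 transcription factors and cofactors, 2 (FOSB and SETBP1) were called lower in 0.1% serum and 3 in 10% serum (these and LDB2), with medians of −0.33 and 0.23. Among the 6 proteases, inhibitors and matrix-modifying enzymes SERPINF1, HPSE2 and PXYLP1 were called lower in 0.1% serum, and SERPINF1 and PXYLP1 in 10% serum.

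SLIT3 had the largest difference of the 93 in both sera, with a log2 fold change of −5.07 ± 0.57 (SE) in 0.1% serum (adjusted p = 1.96e-16) and reached −6.52 ± 0.63 in full serum (adjusted p = 2.44e-22). Its receptor gene ROBO2 was lower by −1.55 ± 0.49 in 0.1% serum (adjusted p = 0.023) and by −2.67 ± 0.51 in 10% serum (adjusted p = 5.18e-06), and the first of these calls was lost without WT library 7 or 8, or ΔLEO1 library 5, 10 or 11, and with the batch term (adjusted p = 0.0739). The inhibitors PMEPA1 and SPRY1 were called lower in both sera. PMEPA1 was lower by −2.67 ± 0.52 (adjusted p = 1.29e-05) and −3.45 ± 0.58 (adjusted p = 1.49e-07), and SPRY1 by −2.4 ± 0.53 (adjusted p = 0.000203) and −2.38 ± 0.55 (adjusted p = 0.000333), in 0.1% and 10% serum. CMKLR1 was lower by −2.48 ± 0.55 (adjusted p = 0.000236) and −3.55 ± 0.61 (adjusted p = 2.24e-07), and PDGFRL, a protein resembling the PDGF receptor, by −2.49 ± 0.53 (adjusted p = 9.34e-05) and −3.07 ± 0.55 (adjusted p = 1.08e-06). SERPINF1 was lower by −1.88 ± 0.49 (adjusted p = 0.00328) and −2.46 ± 0.51 (adjusted p = 4.62e-05). When the lower-numbered libraries were summed, the 0.1% serum calls of ROBO2, PMEPA1, SPRY1, CMKLR1, PDGFRL and SERPINF1 were lost. The 10% serum call of SPRY1 was lost as well, while those of the other genes and both SLIT3 calls held. The SERPINF1 call in 0.1% serum was also lost without WT library 8.

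F2RL1 was the 1 gene called higher in both sera, by 2.39 ± 0.55 in 0.1% serum (adjusted p = 0.000428) and by 3.74 ± 0.61 in 10% serum (adjusted p = 6.09e-08), and its libraries did not overlap in either. In 10% serum SCG2, the secretogranin precursor of neuropeptides, was higher by 1.74 ± 0.6 (adjusted p = 0.0459), TNFAIP6, a hyaluronan-binding protein, by 1.67 ± 0.53 (adjusted p = 0.0229), and NEDD9 by 1.55 ± 0.49 (adjusted p = 0.0221). SCG2 had only 13, 22 and 8 counts in WT and 34, 55 and 45 in ΔLEO1 cells in 10% serum. It passed the filter only with the help of the 0.1% serum libraries, where it was higher. TNFAIP6 had 2.88, 2.83 and 2.58 CPM in WT and 7.27, 9.16 and 4.34 CPM in ΔLEO1 cells in that serum, without overlap. Each of these 3 calls was lost when WT library 2 or 3 or ΔLEO1 library 4 or 5 was left out, and the one for SCG2 in 10 of 12 such fits. The FOSB call in 0.1% serum (−1.42 ± 0.48, adjusted p = 0.0476) was also lost in 10 of 12, while that in 10% serum (−2.76 ± 0.51, adjusted p = 2.24e-06) was lost in none. COMP was called higher in 0.1% serum, by 2.47 ± 0.53 (adjusted p = 0.000102), but without ΔLEO1 library 12 its value was 1.01 and no longer called. COMP was not called with DESeq2 or with either scaling on the genes.

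For several genes the 2 sera gave unlike differences between genotypes, and whether the serum response differed was not tested. In 0.1% serum HPSE2 was lower in ΔLEO1 by −3.07 ± 0.53 (adjusted p = 4.62e-07), with 0.05 ± 0.5 in 10% serum (adjusted p = 0.96), and APOD by −2.41 ± 0.51 (adjusted p = 7.06e-05), with −0.55 ± 0.49 in 10% serum (adjusted p = 0.62). In 10% serum SHISAL1 was lower by −5.02 ± 0.65 (adjusted p = 1.01e-12), OMD by −2.91 ± 0.68 (adjusted p = 0.00044), GDNF by −2.99 ± 0.61 (adjusted p = 2.82e-05) and SOD3 by −2.85 ± 0.51 (adjusted p = 9.44e-07). In 0.1% serum SHISAL1 was at −1.71 ± 0.53 (adjusted p = 0.0198), OGN at −1.94 ± 0.54 (adjusted p = 0.00643), OMD at 0.53 ± 0.53 (adjusted p = 0.825), GDNF at −0.91 ± 0.53 (adjusted p = 0.534) and SOD3 at −1.3 ± 0.48 (adjusted p = 0.0873). OGN was called lower in 10% serum too (adjusted p = 0.000128), but on 16, 33 and 1 counts in WT and 1, 2 and 0 counts in ΔLEO1 cells, too few for a size. OMD had 40, 56 and 10 counts in WT and 7, 3 and 3 in ΔLEO1 cells there, and both genes passed the filter on low values through the 0.1% serum libraries. In ΔLEO1 cells in 10% serum SHISAL1 had 6, 11 and 7 counts and GDNF 12, 9 and 16. The sizes of their differences in that serum thus rest on few counts. The call for SHISAL1 in 0.1% serum was lost with the batch term (adjusted p = 0.1). With the lower-numbered libraries summed, the calls for APOD, SHISAL1 and OGN in 0.1% serum were lost. So were those for OMD, COL6A1 and COL6A2 in 10% serum. The calls for HPSE2 in 0.1% serum and for SHISAL1, GDNF and SOD3 in 10% serum held. For OGN and OMD the libraries in 10% serum overlapped between genotypes on the ERCC scale. The collagen VI chains were called lower in 10% serum, COL6A1 by −1.63 ± 0.45 (adjusted p = 0.00541) and COL6A2 by −1.65 ± 0.45 (adjusted p = 0.00441), and gave −0.96 ± 0.44 (adjusted p = 0.269) and −1.22 ± 0.44 (adjusted p = 0.0763) in 0.1% serum, where their libraries did not overlap.

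The size of the serum response in ΔLEO1 cells, less that in WT cells, had a median of −0.06 on the log2 scale over the 93 genes and −0.07 over all tested genes. It lay within 1 for 67 genes, was 1 or more for 16 and −1 or less for 10. The largest values were 3.44 for OMD, 3.30 for SHISAL1, 2.38 for COMP and 2.08 for GDNF, and the lowest −3.13 for HPSE2, −1.86 for APOD and −1.81 for DPT. OMD, SHISAL1 and GDNF were called lower in ΔLEO1 cells in full serum, and SHISAL1 also in low serum. HPSE2, APOD and DPT were called lower in low serum only, and COMP higher there only. The DPT call (−1.56 ± 0.52, edgeR quasi-likelihood adjusted p = 0.0391) was lost in 9 of 12 fits without 1 library. With the batch term it was also lost (adjusted p = 0.126). The values equal the genotype difference in low serum less that in full serum, so these groups follow from how they are made. TIMP1, CTSK, VDR, EGR2, SKIL and TLE3 were among the genes within 1 and were called in neither serum between genotypes, which does not show that their levels were equal.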

How the data were processed

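Gene counts were made by the authors from paired 58-base reads of a stranded poly(A) preparation. The labels name bcl2fastq 2.20.0.422, STAR 2.7.10a and featureCounts 1.5.1. The deposited values are raw counts of 60671 genes and, in another file, raw counts of 92 ERCC transcripts, in 12 libraries with gene totals of 26240632 to 45315560. No columns of the authors' own comparisons were used. Gene types and positions came from GENCODE release 29, which held 58453 of the gene IDs, and promoters from RefSeq on GRCh38.p14.

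CPM used the library's total gene count. For the tests, libraries were scaled by their ERCC totals, each multiplied by a TMM factor from the ERCC counts. Genes with more than 1 CPM in at least 3 libraries were kept (13236), and all 12 libraries entered 1 edgeR 4.0.16 quasi-likelihood fit (R 4.3.3, limma 3.58.1), with a two-sided test for each contrast and Benjamini-Hochberg adjustment to 0.05 over all tested genes. Errors are approximate standard errors (SE), taken as the absolute log2 fold change divided by the square root of the test's F statistic. Fits were tested on simulated counts that had a common spread and no library apart from its group. That simulation therefore does not cover the unequal libraries seen here.

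The members and lists were chosen with earlier results of these data known, and roles were assigned with the members known. Genes were named for the 12 largest of the smaller fold, the 6 highest CPM, the 5 largest called differences without overlap in each direction between genotypes, up to 4 per list, and the 3 on either side of the threshold. ABTB2, CD302, CD7, DACT1, DPT, EGR3, ENPP1, GDNF, LDB2, NFATC2, OMD, PXYLP1, SECTM1, SETBP1, SNED1, TLE3, VDR, WLS and ZNF365 were named after their values were seen. Members that are not named enter the counts only. Alternatives were other scalings, filters, tests and thresholds, DESeq2 1.42.0, and libraries left out or summed. A batch term for the highest-numbered library of each group was added after seeing the data.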

Additional observations from a re-analysis of the deposited data

How the results depend on the processing

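No paired analysis was possible because the libraries carry running numbers from 1 to 12, and no number is shared between groups. Of the calls between genotypes, none changed direction under any setting run. With 1 library left out, calls held in 262 gene-by-fit pairs in 0.1% serum and were lost in 50, and in 10% serum held in 330 and were lost in 66. Under the other settings they held in 257 and were lost in 55 in 0.1% serum, and held in 359 and were lost in 37 in 10% serum. A batch term for the highest-numbered libraries, added after seeing the data, left 18 of 24 lower genes in 0.1% serum and 27 of 29 in 10% serum.

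Shares of all tested genes called are given in brackets after each count. Genes higher in ΔLEO1 in 0.1% serum numbered 2 (3.49%). DESeq2 gave 1 (3.68%), TMM on genes 5 (15.1%) and median of ratios 5 (15.4%). The fit without the highest-numbered libraries gave 1 (2.26%), and fits without 1 library 2 to 7 (2.04% to 8.48%). Genes lower numbered 24 (3.41%), and 45 with TMM (17.3%), 45 with median of ratios (17%) and 13 with only the 6 libraries compared (2.39%). They numbered 47 without the highest-numbered libraries (11.8%) and 2 with lower-numbered libraries summed (1.44%). Without 1 library they numbered 12 to 36 (2.14% to 7.25%). In 10% serum the higher genes, 4 (3.81%), became 9 with TMM (17.9%), 10 with median of ratios (18.5%) and 8 with 6 libraries (6.6%). They became 1 at an adjusted p under 0.01 (2.7%) and 1 with summed libraries (1.59%). Without 1 library they became 1 to 9 (2.23% to 7.14%). The lower genes, 29 (4.2%), became 46 with TMM (21.4%) and 46 with median of ratios (20.9%). They became 12 with summed libraries (2.13%) and 18 to 32 without 1 library (2.84% to 5.93%). With TMM, 15.1% and 17.3% of all tested genes were called higher and lower in 0.1% serum.

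For serum, with shares of all tested genes again in brackets, 38 were called higher in WT (0.831%). Either gene scaling gave 90 (15.5% and 15.6%), 6 libraries 59 (1.23%) and the 0.01 threshold 22 (0.499%). Summed libraries gave 13 (0.355%), and fits without 1 library 22 to 65 (0.388% to 1.38%). In ΔLEO1, 41 (0.793%) became 92 with either gene scaling (15.5%), 24 with 6 libraries (0.355%) and 17 summed (0.249%). Fits without 1 library gave 24 to 47 (0.387% to 0.903%). The 93 genes became 251 at 2-fold, 45 at 4-fold, 61 at a floor of 10 CPM, 17 with ERCC-scaled folds, and 80 to 100 without 1 library. The cause of these changes was not tested, except that summing leaves fewer samples and a stricter threshold fewer calls.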

Other observations

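Of the genes of other types, 6 met the same folds and floor. DNM3OS, the antisense RNA of DNM3 that carries miRNA precursors, went from a mean of 3.93 to 21.5 CPM in WT cells and from 6.93 to 42.4 CPM in ΔLEO1 cells. MIR503HG, the host RNA of a miRNA, went from 4.25 to 26.1 and from 6.35 to 20.4 CPM, and GASAL1 from 2.05 to 6.34 and from 4.96 to 17.1 CPM. The long RNA MIAT went from 13.7 to 78.7 CPM in WT and from 2.42 to 24.7 CPM in ΔLEO1 cells. ENSG00000269289, annotated as antisense, had folds of 12.4 and 5.27, and ENSG00000261578, annotated as sense overlapping, of 4.88 and 4.58. These values were not tested.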
